A study of Mus musculus with 20 samples.

Results

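The 10 genes described here carry the fasting response of the liver in mouse: the secreted proteins Igfbp1, Fgf21 and Angptl4, the insulin signalling genes Insr, Irs2 and Foxo1, the transcription regulators Ppargc1a and Creb3l3, and the enzymes Pdk4 and Tat. They were taken by gene name from a table of 38924 genes, and all 10 were found and passed the filter on low values. The set was picked by name with the fold changes of these same libraries already known, so the differences between groups given below describe the genes and are no independent support for a fasting pattern.

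Liver RNA was sequenced from 20 male mice, 5 in each of 4 groups. NDWT are wild type C57/BL6 mice (C57BL/6J in the study's methods) on control diet, and HFWT are wild type mice of that strain on CDAHFD. NDKO are TSP-1 knockout mice on control diet, and HFKO are TSP-1 knockout mice on CDAHFD. The paper's discussion gives the background of the knockout as C57BL/6J. CDAHFD is a high fat chow that lacks choline, is limited in methionine and supplies its protein as free amino acids. It is used as a model of non-alcoholic steatohepatitis (NASH). All mice were bought at 5 weeks of age, acclimated for 1 week and then fed their diet for 12 weeks. The knockout is named without a limit to any cell type, and it came from a vendor stock, with no littermate controls named. The comparisons ask how the diet changed the liver of each genotype and how the genotypes differed on each diet. Whether the mice were fed or fasted at collection, and the hour, are not given in the sources used here.

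Between meals, insulin falls and glucagon and glucocorticoids rise. In the hepatocyte, less insulin leaves FoxO1 in the nucleus, glucagon acts through cAMP and CREB, and fatty acids released from fat activate PPARα. These signals together raise glucose output, fatty acid oxidation and amino acid breakdown, and they drive the release of liver hormones. In the fed state insulin acts through its receptor and IRS2 and reverses this program.

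Libraries held 15641545 to 23276322 fragments assigned to genes. The group medians were 17800442 (NDWT), 20216988 (NDKO), 18843904 for HFWT and 19057061 for HFKO. Thbs1, the gene of TSP-1, did not follow the labels: it was at 0.058 to 0.326 FPKM in NDWT and at 0.986 to 1.9 FPKM in NDKO, without overlap. On CDAHFD it was at 3.46 to 6.1 FPKM in HFWT and 3.05 to 4.4 FPKM in HFKO. Which part of the gene the knockout allele lacks is not given in the sources used here, so NDKO and HFKO name the libraries labelled TSP-1 null throughout. An exchange of labels, which would turn the sign of the genotype differences it touched, was not tested. The tissue carried the defining transcripts of hepatocytes, with Alb the gene that took most fragments in every library, while adipocyte and pancreatic acinar markers stayed at or below 0.447 FPKM in sum, with Lep and Pnlip at 0 in every library.

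Markers of several other cell types moved with the diet. Markers of stellate cells (7 of 7 tested), cholangiocytes (5 of 5), lymphocytes (6 of 6) and neutrophils (2 of 2) were called higher on CDAHFD in both genotypes. Of all tested genes, 44.1% were called higher in WT and 41.9% in TSP-1 null. Of 5 endothelial markers, 1 was called higher in WT and 2 in TSP-1 null. Of 7 hepatocyte markers, 2 were called lower in WT and 1 in TSP-1 null. The median of the summed hepatocyte markers was 42215 FPKM in NDWT and 39329 FPKM in HFWT, and 47323 FPKM in NDKO and 48529 FPKM in HFKO. Summed cholangiocyte markers went from 15.2 to 18.0 FPKM in NDWT to 292 to 488 FPKM in HFWT, and summed macrophage markers from 198 to 267 FPKM in NDWT to 973 to 1337 FPKM in HFWT. Lyz2 made up most of the macrophage sum in HFWT (870 ± 99.3 FPKM, SD, n = 5). In HFKO these sums were 181 to 360 FPKM and 617 to 1324 FPKM. In NDKO they were 12.4 to 15.5 FPKM and 173 to 292 FPKM. Of 7 macrophage markers, 4 were called higher and 1 lower in WT, and 5 higher and 1 lower in TSP-1 null. In bulk tissue, fewer cells of a type and less RNA per cell cannot be told apart. Median of ratios scaling called 6 hepatocyte markers lower in WT and 3 in TSP-1 null, and 5 and 4 stellate cell markers higher. It called 4 macrophage markers higher in either genotype, with 2 lower in WT and 1 in TSP-1 null. Lymphocyte markers called higher were 5 in WT and 4 in TSP-1 null with that scaling, and 3 and 0 with quantile normalization. The part of the cell type markers in the results below was not tested.

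The control regions of the members were read from the RefSeq promoter table (GRCm38.p6), which held 8 of the 10, all but Insr and Angptl4. The 250 bases before each start were searched on both strands for motifs of the factors of the fasting response. The genes shown are the 2 that were called between the genotypes on control diet, Igfbp1 and Ppargc1a, together with Irs2, which covaried with Igfbp1 within groups, and Fgf21, which held the most kinds of motif. Capitals mark the motif matches.

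Igfbp1: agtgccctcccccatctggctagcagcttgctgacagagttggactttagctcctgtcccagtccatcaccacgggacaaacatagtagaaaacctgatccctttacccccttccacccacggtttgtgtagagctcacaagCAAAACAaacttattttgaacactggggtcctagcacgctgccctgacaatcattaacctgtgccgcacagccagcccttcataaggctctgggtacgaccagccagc
Irs2: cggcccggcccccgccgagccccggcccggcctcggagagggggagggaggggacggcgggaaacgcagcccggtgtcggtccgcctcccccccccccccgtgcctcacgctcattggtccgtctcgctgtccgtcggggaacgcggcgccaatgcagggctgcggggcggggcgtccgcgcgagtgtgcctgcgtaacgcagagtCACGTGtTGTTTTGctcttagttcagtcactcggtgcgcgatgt
Ppargc1a: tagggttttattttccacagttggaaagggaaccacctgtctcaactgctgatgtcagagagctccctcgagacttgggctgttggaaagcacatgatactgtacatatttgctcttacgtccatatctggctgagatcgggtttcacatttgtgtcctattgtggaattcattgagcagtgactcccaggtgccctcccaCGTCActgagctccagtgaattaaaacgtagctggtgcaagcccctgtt
Fgf21: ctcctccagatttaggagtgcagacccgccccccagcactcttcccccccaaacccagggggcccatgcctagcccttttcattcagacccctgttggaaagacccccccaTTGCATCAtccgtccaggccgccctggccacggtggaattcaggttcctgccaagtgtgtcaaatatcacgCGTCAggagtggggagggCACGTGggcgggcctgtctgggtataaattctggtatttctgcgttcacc

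The Igfbp1 window (GRCm38.p6, chr11:7197537-7197786, plus strand) held the FoxO motif CAAAACA, starting 108 bases before the start. The Irs2 window (chr8:11008930-11009179, minus strand) held the same motif on the other strand, starting 37 bases before the start, next to an E-box, CACGTG. Its start lies 471 bases outside the Irs2 gene of the expression table, and the bases after it were found in no Irs2 transcript of GENCODE M21. CAAAACA was present in 5.56% of all 32851 promoters in the table. The Ppargc1a window (chr5:51567726-51567975, minus strand) and the Fgf21 window (chr7:45615491-45615740, minus strand) each held TGACG, the core of the cAMP response element, which 17.8% of promoters held. Fgf21 also held the composite motif of ATF4 with C/EBP, TGATGNAA, and the E-box, found in 3.45% and 6.02% of promoters. Creb3l3 held the glucocorticoid receptor core AGAACA in 2 places, as 16.1% of promoters did in at least 1. The second FoxO form GTAAACA (3.17% of promoters), the whole cAMP response element TGACGTCA (1.55%), which contains that core, and the nuclear receptor core AGGTCA (14.0%) were in none of the 8 windows. Pdk4, Foxo1 and Tat held none of the motifs searched. These are letter matches, not measured binding sites.

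On control diet the members spanned a wide range of abundance per length. In NDWT, Tat was the most abundant (414 ± 158 FPKM, SD, n = 5) and Ppargc1a the least (1.16 ± 0.504 FPKM). Creb3l3 (201 ± 17.9), Angptl4 (69.5 ± 12.2), Igfbp1 (45.2 ± 20.0), Fgf21 (23.4 ± 5.52), Insr (22.4 ± 2.0), Pdk4 (16.8 ± 12.6), Irs2 (13.4 ± 3.87) and Foxo1 (6.47 ± 0.982 FPKM) lay between. Each value rests on at least 58 fragments, the lowest count of any member in any library (Ppargc1a in NDWT).

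**Figure D1:**
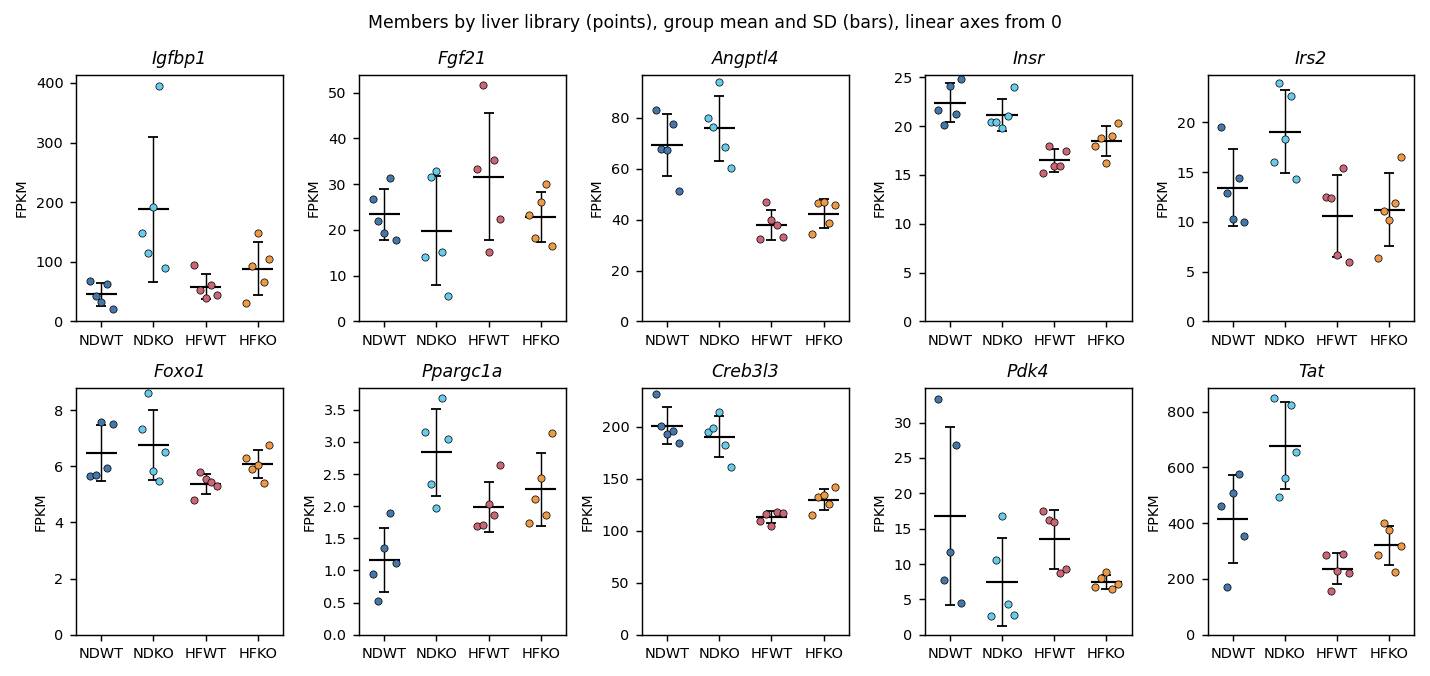
FPKM (linear axis from 0) of each member in every library, one panel per gene and one column per group (NDWT, NDKO, HFWT, HFKO); points are libraries, the horizontal line is the group mean and the bar its SD, n = 5. Igfbp1 and Ppargc1a sit apart only between NDWT and NDKO, Angptl4 and Creb3l3 are lower in every CDAHFD library than in every control diet library of the same genotype, and Pdk4 spreads from 4.51 to 33.3 FPKM within NDWT.

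The counts of members in each comparison were as follows. In the diet comparison in WT, 1 of the 10 members was called higher and 3 lower (FDR under 0.05 and absolute log2FC above 0.58), beside 44.1% and 4.62% of the 14524 tested genes. The groups did not overlap for 3 members, beside 56.2% of tested genes. In the diet comparison in TSP-1 null, 0 were called higher and 4 lower, beside 41.9% and 4.00% of tested genes, and 3 members did not overlap, beside 57.8%. Between genotypes on control diet, 2 members were called higher and 0 lower, beside 1.74% and 3.03%, and 2 did not overlap, beside 9.03%. On CDAHFD no member was called, higher or lower, beside 0.165% and 0.330% of tested genes, and none was without overlap, beside 4.98%. Of these members 2 had an unadjusted p under 0.05 on CDAHFD with limma on FPKM, beside 2499 of the 14524 tested genes. Voom on the recovered fragments also called 0. The interaction called 0 members, beside 0.647% of tested genes, and voom again called 0. An unadjusted p under 0.05 was found for 4 members, beside 2199 of the 14524 tested genes. The comparisons share groups: NDWT serves the WT diet comparison and the genotype comparison on control diet, and NDKO serves the TSP-1 null diet comparison and the same genotype comparison.

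The 2 diet comparisons carry an offset. FPKM are shares of a library, and the median tested gene was 0.53 higher on the log2 scale in HFWT than in NDWT, and 0.50 higher in HFKO than in NDKO. Between genotypes the median was -0.07 on control diet and -0.10 on CDAHFD. Set against the median gene, 9 of 10 members were lower on CDAHFD in WT and 10 of 10 in TSP-1 null. Hepatocyte markers lay below it too. Relative to the median gene, the median of the members was -0.85 in WT and -0.93 in TSP-1 null. That of the 7 hepatocyte markers was -0.88 and -0.50. With median of ratios scaling, which centres the median gene, 61% in place of 90.5% of the genes called in the WT diet comparison were higher, and 63.1% in place of 91.3% in TSP-1 null. The same scaling called 6 members lower and 0 higher in WT, beside 14.8% and 23.1% of all tested genes. In TSP-1 null it called 8 members lower, beside 13.2% of tested genes.

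**Figure D2:**
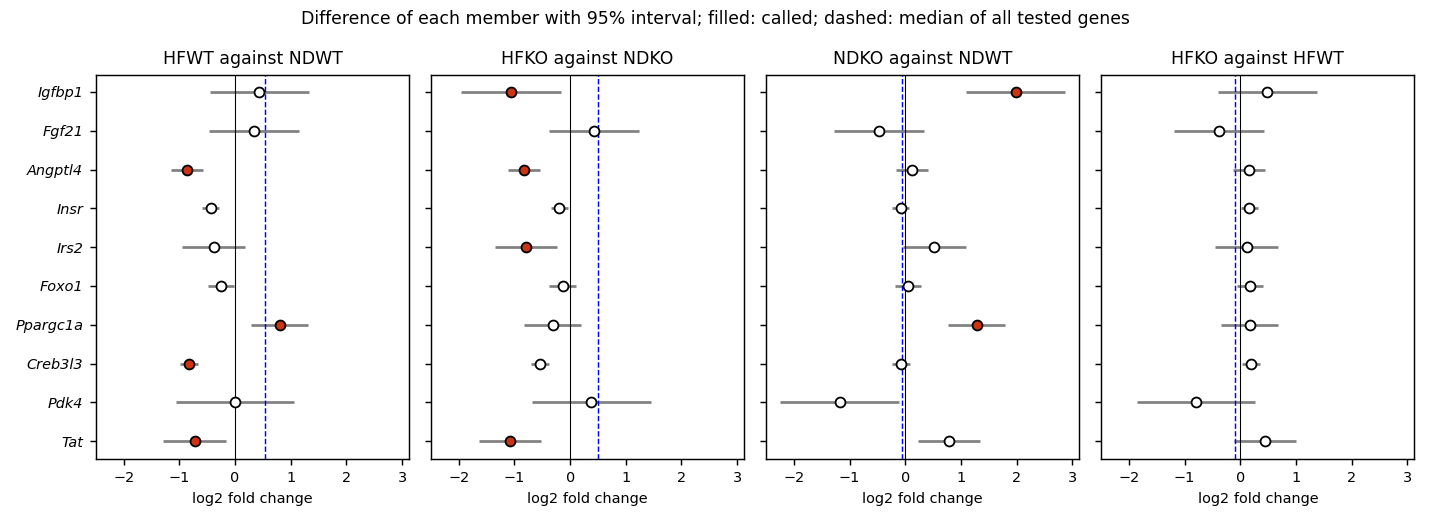
log2 fold change (x axis) of each member (rows) in the 4 comparisons, with 95% intervals from limma over all 20 libraries; filled points passed both thresholds, open points did not, and the dashed line is the median of all tested genes. In both diet panels that median lies near 0.5 and the points lie mostly to its left, whereas between the genotypes on CDAHFD no point is filled.

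Igfbp1 (ENSMUSG00000020429.7, GRCm38 chromosome 11, 7197782 to 7202546, plus strand) encodes a secreted protein that binds IGF-1 and is repressed by insulin. On control diet it was at 67.2, 42.0, 33.0, 63.6 and 20.4 FPKM in the 5 NDWT libraries and at 148, 116, 192, 395 and 90.3 FPKM in the 5 NDKO libraries. Every NDKO library lay above every NDWT library. The difference was 1.98 on the log2 scale (SE 0.43, a fold of 3.95, FDR = 0.00486), and it stayed between 1.66 and 2.20 with any 1 library left out. On CDAHFD it was at 94.1, 53.5, 39.8, 60.4 and 44.9 FPKM in HFWT and at 30.3, 93.4, 148, 66.8 and 105.4 FPKM in HFKO. These 2 groups overlapped, and their difference was 0.49 (95% interval -0.40 to 1.38, FDR = 0.577).

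Ordered from the lowest mean, NDWT came first, then HFWT, HFKO and NDKO. Neither NDWT with HFWT (log2FC 0.43, FDR = 0.366) nor HFWT with HFKO passed the test. Igfbp1 fell from NDKO to HFKO by 1.06 on the log2 scale (FDR = 0.0315), but this call ended without NDKO replicate 3 (FDR = 0.0599), NDKO replicate 4 (log2FC -0.74, FDR = 0.11), HFKO replicate 1 (log2FC -0.72, FDR = 0.114) or HFKO replicate 4 (FDR = 0.0602), with no filter (FDR = 0.0518) and with only the groups compared (FDR = 0.0552). The interaction, the change of the genotype difference between diets, was -1.49 (SE 0.60, FDR = 0.238).

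The genes that surround Igfbp1 in the IGF system showed mixed patterns. Of 8 IGF and IGF binding protein genes, 1 was called higher between genotypes on control diet, Igfbp2 (a fold of 2.3, FDR = 0.00556), whose product is another circulating IGF carrier. On CDAHFD 5 were called higher and 1 lower in WT, and 2 higher and 2 lower in TSP-1 null. Median of ratios scaling gave 3 and 3, and 1 and 3. Igfbp7 rose in both (2.36 and 2.17), and Igfals, the subunit that stabilises circulating IGF complexes, fell in both (by 0.95 and 1.03 on the log2 scale). Igf1 fell in TSP-1 null by 0.62 on the log2 scale (FDR = 0.00013).

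Fgf21 (ENSMUSG00000030827.4, chromosome 7, 45613907 to 45615490, minus strand) encodes a liver hormone induced by PPARα and ATF4. NDWT libraries ranged from 17.8 to 31.3 FPKM (median 21.97) and NDKO libraries from 5.53 to 32.8 FPKM (median 15.1). HFWT libraries ranged from 15.3 to 51.6 FPKM (median 33.3) and HFKO libraries from 16.5 to 29.9 FPKM (median 23.3). All groups overlapped. Its log2FC was 0.34 (95% interval -0.46 to 1.15) for the diet in WT, 0.43 (-0.38 to 1.23) for the diet among TSP-1 null mice, -0.47 (-1.28 to 0.34) between genotypes on control diet and -0.39 (-1.19 to 0.42) on CDAHFD. None passed the test, and these intervals hold differences of up to more than a doubling in the diet comparisons. Between the genotypes they hold falls about as large.

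Beside it, the targets of ATF4 and PPARα, 2 of the factors known to drive Fgf21, moved mostly in opposite directions on CDAHFD. Creb3l3, the gene of a further such factor, is described below. Of 14 ATF4 targets, 10 were called higher in WT and 10 in TSP-1 null (1 was lower there). The shares of all tested genes called higher were 44.1% and 41.9%. The median of the ATF4 list lay 1.65 and 1.81 above the median gene. Among the ATF4 targets called higher were Atf3 (log2FC 4.79 and 5.22) and, in TSP-1 null, Psat1, an enzyme of serine synthesis (3.06). Of 18 PPARα targets, 17 were called lower in WT and 10 in TSP-1 null, with 0 higher in either. The counts lower were 18 and 16 with median of ratios scaling and 16 and 8 with quantile normalization. These included the thioesterase Acot1 (log2FC -4.22 and -2.78). On control diet, 1 ATF4 target was called higher in NDKO, the factor Atf5 (0.61, FDR = 0.00696), and 3 lower, among them the stress hormone Gdf15 (-1.87, FDR = 0.00234). The PPARα targets called lower there were Fabp1 (-0.96, FDR = 0.00128) and Vnn1 (-1.35, FDR = 0.0017). Of the 5 FGF21 receptor genes tested, 4 were called higher and 1 lower on CDAHFD in each genotype, with Fgfr3 at 2.43 and 2.66 and Fgfr1 at 2.41 and 1.62. Either other scaling (median of ratios or quantile) called 2 higher and 1 lower in each genotype.

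Angptl4 (ENSMUSG00000002289.9, chromosome 17, 33773750 to 33781575, minus strand) encodes an inhibitor of lipoprotein lipase and is a PPARα target. On control diet it was at 83.2, 67.9, 67.5, 77.8 and 51.4 FPKM in NDWT and at 80.0, 76.4, 94.0, 68.7 and 60.3 FPKM in NDKO. On CDAHFD it was at 32.4, 47.0, 40.1, 37.8 and 33.1 FPKM in HFWT and at 34.3, 46.5, 46.8, 38.7 and 45.7 FPKM in HFKO. In either genotype every CDAHFD library lay below every control diet library. Angptl4 fell by 0.86 on the log2 scale in WT (SE 0.14, FDR = 1.51e-05) and by 0.83 in TSP-1 null (SE 0.14, FDR = 2.46e-05). The interaction was 0.03 (95% interval -0.38 to 0.44), and the genotypes did not pass the test on either diet. Scaled by median of ratios, it was -1.40 in WT and -1.35 in TSP-1 null.

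Around it, of 9 genes of lipoprotein lipase control, Lpl itself rose on CDAHFD in both genotypes (log2FC 4.31 and 3.73), and Lipc, hepatic lipase, fell in both (by 0.65 and 0.95 on the log2 scale). In all 1 was called higher and 4 lower in WT, and 3 higher and 3 lower in TSP-1 null. On control diet the gene listed as Gm6484, an older name of Angptl8, was lower in NDKO (log2FC -1.45, FDR = 0.00799). Its product is a lipoprotein lipase regulator that rises with feeding.

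Insr (ENSMUSG00000005534.9, chromosome 8, 3150922 to 3279617, minus strand), the insulin receptor, was the steadiest member. It was at 21.7, 20.1, 24.2, 21.2 and 24.8 FPKM in NDWT and at 15.2, 18.0, 15.97, 15.9 and 17.4 FPKM in HFWT. The 2 groups did not overlap, yet the log2FC of -0.44 (SE 0.08, FDR = 3.38e-05) was smaller than the fold threshold. In NDKO it was at 20.5, 20.4, 19.8, 20.99 and 24.0 FPKM, and in HFKO at 18.0, 18.8, 16.2, 19.0 and 20.4 FPKM. These overlapped, with a log2FC of -0.19 (SE 0.08, FDR = 0.0268). With median of ratios scaling it was called lower in both genotypes (-0.98 and -0.71). With quantile normalization it was called lower in WT (-0.78) but not in TSP-1 null (-0.54).

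Irs2 (ENSMUSG00000038894.6, chromosome 8, 10986980 to 11008458, minus strand) encodes the docking protein that relays the insulin signal in the fasted and early fed liver and is itself a FoxO1 target. It was at 16.04, 23.9, 18.4, 22.7 and 14.3 FPKM in NDKO and at 6.4, 11.1, 10.2, 11.9 and 16.6 FPKM in HFKO. Only HFKO replicate 5 reached into the range of NDKO. Irs2 fell by 0.79 on the log2 scale (SE 0.27, FDR = 0.0128). In WT it was at 19.5, 13.0, 10.3, 14.4 and 9.98 FPKM in NDWT and at 12.6, 12.4, 6.67, 15.5 and 6.01 FPKM in HFWT, which overlapped (log2FC -0.39, FDR = 0.203). This difference passed with median of ratios scaling (-0.92) and with quantile normalization (-0.84). Between NDKO and NDWT the log2FC was 0.52 (95% interval -0.04 to 1.08, FDR = 0.221).

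Foxo1 (ENSMUSG00000044167.5, chromosome 3, 52268337 to 52350109, plus strand) encodes the transcription factor that insulin keeps out of the nucleus. It ranged from 5.64 to 7.58 FPKM in NDWT and from 5.48 to 8.6 FPKM in NDKO. On CDAHFD the range was 4.81 to 5.79 FPKM (HFWT) and 5.4 to 6.77 FPKM (HFKO), and all groups overlapped. Its log2FC was -0.25 in WT (95% interval -0.49 to -0.02, FDR = 0.0512) and -0.13 in TSP-1 null (FDR = 0.304). The median of ratios scaling called it lower in both (-0.79 and -0.65). Transcript level does not measure the nuclear FoxO1 protein.

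Of 10 FoxO-driven genes other than the members, 2 were called higher and 2 lower on CDAHFD in WT, 1 higher and 2 lower in TSP-1 null, and 0 between genotypes on either diet. Under median of ratios scaling these were 1 and 6, and 0 and 3. Mttp, which loads lipid onto VLDL, fell by 1.18 on the log2 scale in WT and by 0.60 in TSP-1 null, and Sesn1 rose (1.21 and 0.99). Of 13 insulin signal genes, 4 were called higher in WT and 6 in TSP-1 null, with 0 lower, and the median of the list was 0.35 and 0.44, below the median of all genes in both. Median of ratios scaling called 0 of them higher. They included Akt1 (0.93 and 0.86) and Ptpn1, the phosphatase of the insulin receptor (1.11 and 1.09). Of 9 insulin-induced genes, 4 were called higher and 4 lower in WT and 5 higher and 2 lower in TSP-1 null, with the desaturase Scd1 at -5.00 and -3.61. Median of ratios scaling gave 1 higher and 4 lower, and 3 higher and 4 lower. Neither list had a call between the genotypes.

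Ppargc1a (ENSMUSG00000029167.7, chromosome 5, 51454249 to 51567725, minus strand) encodes PGC-1α, the coactivator that glucagon and cAMP induce and that drives gluconeogenic and mitochondrial genes. On control diet it was at 0.945, 0.523, 1.35, 1.89 and 1.12 FPKM in NDWT and at 3.15, 2.34, 1.97, 3.68 and 3.04 FPKM in NDKO. Every NDKO library lay above every NDWT library, with counts of 58 to 215 fragments in NDWT and 245 to 432 in NDKO. The difference was 1.28 on the log2 scale (SE 0.24, a fold of 2.44, FDR = 0.00219), and it stayed between 1.05 and 1.47 with any 1 library left out.

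On CDAHFD, Ppargc1a was at 1.69, 1.71, 2.03, 1.86 and 2.65 FPKM in HFWT and at 1.74, 2.12, 2.44, 1.86 and 3.15 FPKM in HFKO, and the groups overlapped (log2FC 0.17, 95% interval -0.34 to 0.68). It rose from NDWT to HFWT by 0.81 (SE 0.24, FDR = 0.00597), which is 0.27 above the median gene. The value without NDWT replicate 2 was 0.575, under the fold threshold. The call also ended with a pseudocount of 1 (0.49) and with median of ratios scaling (0.30, FDR = 0.324), and the direction turned with quantile normalization (-0.14, FDR = 0.644). From NDKO to HFKO the log2FC was -0.31 (FDR = 0.257), which these scalings called lower (-0.81 and -1.05), and the interaction was -1.12 (SE 0.34, FDR = 0.124). Of 8 genes of the PGC-1 family and its partners, 2 were called higher on CDAHFD in WT, Nrf1 (0.69) and Pprc1 (0.99), 1 in TSP-1 null, Pprc1 (0.62), and 0 between genotypes. These lay 0.16, 0.46 and 0.12 above the median gene, and median of ratios scaling called 0 higher and 3 and 4 lower.

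Creb3l3 (ENSMUSG00000035041.8, chromosome 10, 81084324 to 81098874, minus strand) encodes CREBH, a membrane-bound factor of the endoplasmic reticulum that is released by cleavage on fasting and drives Fgf21 and apolipoprotein genes. It was at 231, 201, 193, 195 and 184 FPKM in NDWT and at 110, 116, 104.5, 118 and 117 FPKM in HFWT. In NDKO it was at 195, 199, 214, 182 and 161 FPKM, and in HFKO at 115, 133, 134, 125 and 142 FPKM. In both genotypes every CDAHFD library lay below every control diet library. Creb3l3 fell by 0.83 on the log2 scale in WT (SE 0.08, FDR = 1.62e-08). In TSP-1 null the log2FC was -0.55 (SE 0.08, FDR = 3.92e-06), just under the fold threshold, and it passed without NDKO replicate 5 (-0.61) or HFKO replicate 5 (-0.58). With median of ratios scaling it was -1.37 in WT and -1.07 in TSP-1 null, both called. With quantile normalization it was called in WT (-0.74) but not in TSP-1 null (-0.49). The interaction was 0.28 (SE 0.11, FDR = 0.232).

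Of 7 genes of the CREB3 family and the proteases that release such factors, 3 were called higher and 0 lower on CDAHFD in each genotype, a share near that of all tested genes called higher. Quantile normalization left 1 higher in WT and 2 in TSP-1 null. Creb3l1, a family member known from collagen-secreting cells, rose by 2.76 and 3.02. On control diet Creb3l2 was lower in NDKO (log2FC -1.09, FDR = 0.0029).

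Pdk4 (ENSMUSG00000019577.4, chromosome 6, 5483351 to 5496309, minus strand) encodes the kinase that shuts off pyruvate dehydrogenase on fasting and spares glucose. It was at 33.3, 7.7, 11.7, 26.8 and 4.51 FPKM in NDWT and at 2.65, 10.6, 16.8, 4.38 and 2.75 FPKM in NDKO. Both groups spread over more than 6 fold and overlapped. The log2FC was -1.18 (SE 0.51, FDR = 0.137), opposite in sign to Igfbp1 and Ppargc1a, and among the alternatives run it passed only without NDKO replicate 3 (-1.57, FDR = 0.0438). On CDAHFD it was at 17.5, 16.2, 15.99, 8.75 and 9.28 FPKM in HFWT and at 6.79, 7.99, 8.87, 6.51 and 7.17 FPKM in HFKO. HFKO replicate 3 alone reached the lowest HFWT library (log2FC -0.80, SE 0.51, FDR = 0.433). The diet comparisons gave 0.00 in WT and 0.38 in TSP-1 null, neither called.

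Of 9 other genes that control pyruvate dehydrogenase or build it, 2 were called higher and 2 lower on CDAHFD in WT, and 2 higher in TSP-1 null. The balance turned in TSP-1 null, to 2 higher and 3 lower with median of ratios scaling and to 0 higher and 2 lower with quantile normalization. The kinase Pdk3 rose (log2FC 2.47 and 1.82), as did the phosphatase Pdp1 (2.07 and 1.55). The phosphatase Pdp2, which undoes what Pdk4 does, fell in WT by 1.02 on the log2 scale and was lower in NDKO than in NDWT (-0.63, FDR = 0.00192), a call that ended under both other scalings.

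Tat (ENSMUSG00000001670.7, chromosome 8, 109990437 to 109999803, plus strand) encodes tyrosine aminotransferase, a classic target of glucocorticoids and glucagon. It was at 463, 172, 507, 576 and 354 FPKM in NDWT and at 850, 496, 563, 823 and 653 FPKM in NDKO. Of the NDKO libraries, 3 lay above the whole of NDWT. The log2FC was 0.79 (SE 0.27, FDR = 0.0567), and it passed without NDWT replicate 4 (0.94, FDR = 0.0291) or NDKO replicate 2 (0.90, FDR = 0.0442). On CDAHFD it was at 287, 157, 228, 290 and 221 FPKM in HFWT and at 287, 400, 375, 224 and 319 FPKM in HFKO, which overlapped (log2FC 0.45, FDR = 0.404).

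Tat fell on CDAHFD in TSP-1 null by 1.07 on the log2 scale without overlap (SE 0.27, FDR = 0.00136). In WT it fell by 0.73 (SE 0.27, FDR = 0.0197), with overlap through NDWT replicate 2, and the call ended without NDWT replicate 3 (FDR = 0.0543), NDWT replicate 4 (FDR = 0.0644) or HFWT replicate 2 (FDR = 0.0632) and with quantile normalization (-0.58, FDR = 0.056). Median of ratios scaling gave -1.27 in WT and -1.60 in TSP-1 null. Of the 5 other genes of tyrosine breakdown, 2 were called lower on CDAHFD in each genotype, Hpd (-1.02 and -1.63) and Hgd (-0.71 and -1.18). Scaled by median of ratios, 4 were lower in WT and 5 in TSP-1 null. On control diet Hpd was higher in NDKO (log2FC 0.65, FDR = 0.000675).

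Genes of the hormones that act on Tat and Ppargc1a were counted beside them. Of 10 genes of the glucagon and cAMP signal, 2 were called higher in NDKO than in NDWT and 0 lower: Sds, serine dehydratase (log2FC 1.68, FDR = 0.000613), and Pck1, the entry enzyme of gluconeogenesis (0.82, FDR = 0.00832). Of 10 genes of the glucocorticoid signal, 3 were called higher and 0 lower: Zbtb16 (2.34, FDR = 0.00159), Per1 (1.13, FDR = 0.0107) and Tsc22d3, known as GILZ (0.79, FDR = 0.0248). On CDAHFD neither list had a call between genotypes. Quantile normalization called 1 gene of the glucagon and cAMP list higher on each diet. In the diet comparisons the glucagon and cAMP list had 1 gene higher and 2 lower in WT, with 4 higher and 4 lower among TSP-1 null mice, and the glucocorticoid list 3 and 2, and 3 and 1. With median of ratios scaling more were lower than higher in both lists, 1 higher and 5 lower in each genotype for glucagon and cAMP, and 2 and 4, and 2 and 6, for glucocorticoids. In WT, G6pc, the last enzyme of glucose output, fell by 1.66 on the log2 scale and Pck1 by 0.85. Their means were lower on CDAHFD in TSP-1 null as well. G6pc was at 272 FPKM in NDKO and 68.2 FPKM in HFKO, and Pck1 at 1607 and 801 FPKM.

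**Figure D3:**
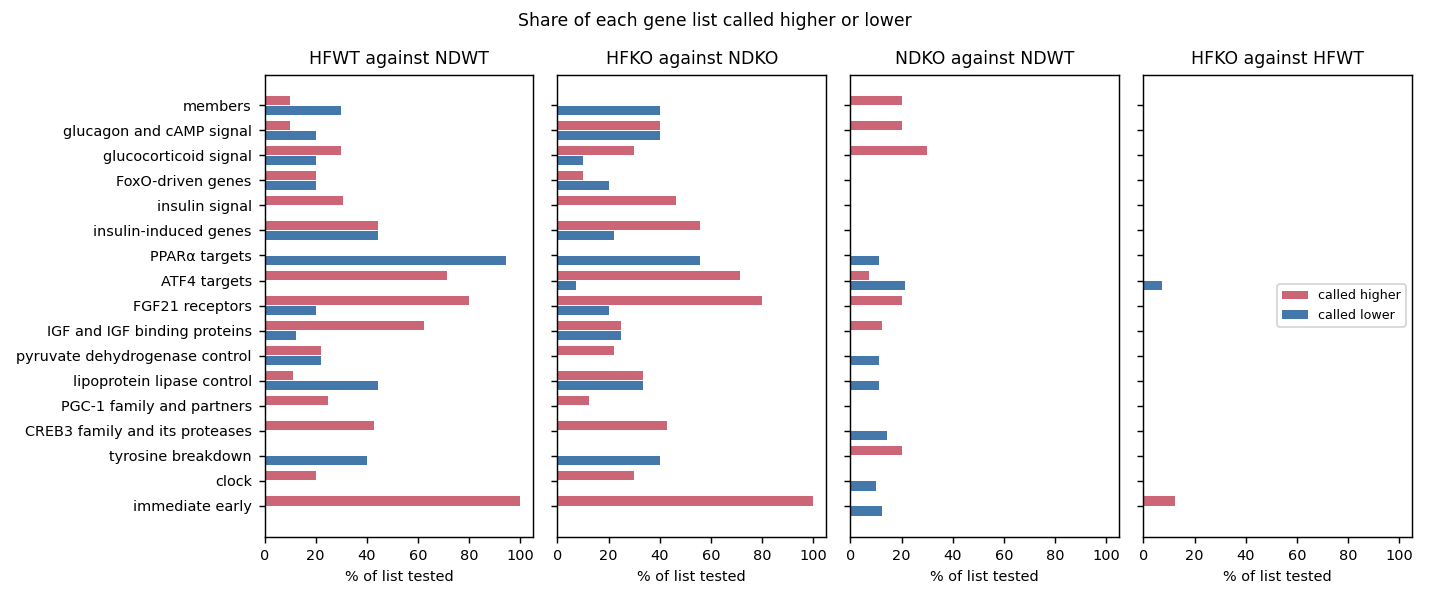
Share of the tested genes of each list (x axis, percent) called higher or lower in the 4 comparisons; the top row holds the 10 members and the others the lists named in the text. PPARα targets are called lower and ATF4 targets mostly higher on CDAHFD. Between genotypes on control diet the members and the glucagon and glucocorticoid lists hold only higher calls. So do the IGF, FGF21 receptor and tyrosine breakdown lists, with 1 gene each, and 1.74% of all tested genes were called higher there. Between genotypes on CDAHFD 2 bars remain.

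The members differed in how far mice of one group lay apart. The SD of log2(FPKM + 0.1) within groups was 0.88 for Pdk4, 0.73 for Igfbp1 and 0.67 for Fgf21, above 94.4%, 92.8% and 91.7% of the tested genes. It was 0.46 for Irs2 and Tat, 0.41 for Ppargc1a, 0.23 for Angptl4 and 0.18 for Foxo1. Creb3l3 (0.12) and Insr (0.11) were steadier than the median tested gene (0.22).

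This spread was shared between some members. After the group means were subtracted, all 45 pairs of members were compared over the 20 libraries, with p from 100000 permutations of libraries within groups (two-sided). Angptl4 and Creb3l3 had r = 0.74 (p = 0.00091, adjusted p = 0.0409) and rho = 0.71 (p = 0.00188, adjusted p = 0.083). Pdk4 and Angptl4 had r = 0.68 (p = 0.00268, adjusted p = 0.0412) and rho = 0.66 (p = 0.00632, adjusted p = 0.083). Igfbp1 and Irs2 had r = 0.65 (p = 0.00275, adjusted p = 0.0412) and rho = 0.59 (p = 0.00971, adjusted p = 0.0874). The other 42 pairs did not pass, and no pair passed by rank. With quantile normalization none of the 3 passed (adjusted p = 0.0814 for each).

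Without the 2 libraries farthest out on the first gene, r was 0.66, 0.56 and 0.57 for the 3 pairs. Within the 10 control diet libraries it was 0.87, 0.83 and 0.70, and within the 10 CDAHFD libraries 0.54, 0.38 and 0.65. Ppargc1a and Tat, both known targets of glucagon, had r = 0.71 (adjusted p = 0.0546), which was 0.43 without NDWT replicates 2 and 4. Pdk4 with Igfbp1 had r = 0.42 (p = 0.101) and Pdk4 with Ppargc1a r = -0.08 (p = 0.811).

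**Figure D4:**
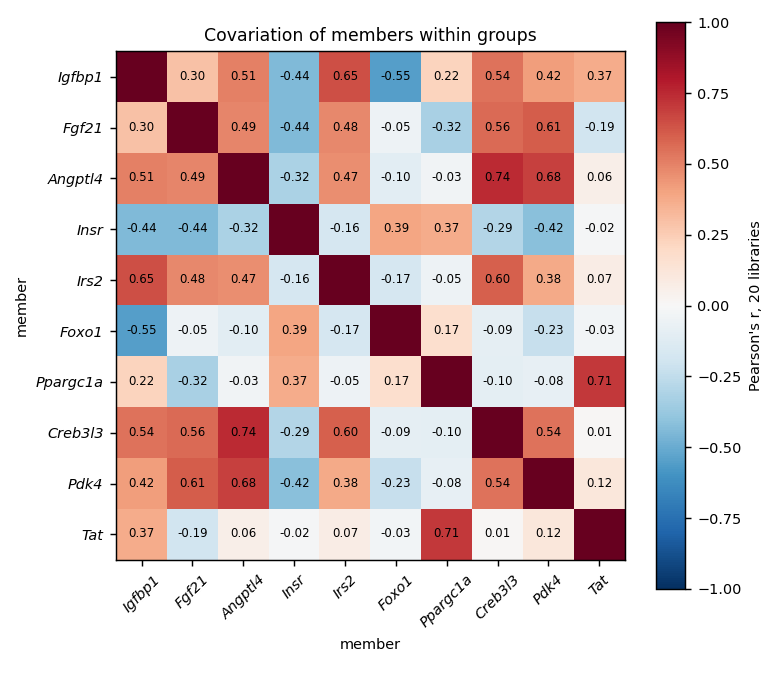
Pearson's r (colour and printed value) of each pair of members over the 20 libraries, on log2(FPKM + 0.1) with the group mean subtracted. Angptl4, Creb3l3, Pdk4, Irs2, Fgf21 and Igfbp1 are positively related to each other, up to 0.74, while Insr and Foxo1 have negative or weak values with them.

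For each member the 3 genes with the most similar deviations within groups were listed, the highest of 14524 genes and so high by selection. Pdk4 was closest to Gadd45b (r = 0.85), the lipid droplet protein gene Plin2 (0.85) and Tnfrsf10b (0.83). Angptl4 was closest to the lipid droplet gene Hilpda (0.81), Chkb (0.80) and Pnpla2, the gene of adipose triglyceride lipase (0.80). Fgf21 was closest to G0s2, an inhibitor of that lipase (0.83), Sra1 (0.82) and Pcgf6 (0.82). Igfbp1 was closest to Tma7-ps (0.79), the ubiquitin ligase gene Fbxo32 (0.77) and Jun (0.75). Creb3l3 was closest to the peroxisomal thiolase gene Acaa1a (0.87), Sun2 (0.86) and Oplah (0.81). Tat was closest to Klhl3 (0.85), Gm15635 (0.82) and Sdccag8 (0.81), and Ppargc1a to Gm15662 (0.85), Fam134b (0.82) and Gfra1 (0.81). Irs2 was closest to Ppp1r15a (0.79), Zc3h3 (0.79) and 2410006H16Rik (0.78), Foxo1 to Synj2 (0.83), Gm15779 (0.82) and Garem (0.80), and Insr to Abca5 (0.90), Atrx (0.88) and Dennd5b (0.88).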

How the data were processed

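Per the labels and the paper, poly(A) RNA of liver was sequenced in pairs of reads and processed with QuickRNASeq. The submitters' processing notes name STAR 2.5.2, Subread 1.5.1 with featureCounts, and GRCh38, although the deposited coordinates are of GRCm38 (99.8% of 37607 gene identifiers overlapped the gene in GENCODE M21). The lobe is given as right medial in the data series and right lateral in the paper. The deposited values are FPKM made by the authors, without further scaling between libraries. Fragments recovered from FPKM, length and library total were whole (within 0.1) for at least 99.985% of checked values in any library.

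The 14524 genes that exceeded 0.5 FPKM in 5 or more libraries were tested by limma 3.58.1 in R 4.3.3 (eBayes with trend, 20 libraries in 1 fit, a mean per group) on log2(FPKM + 0.1). Fold changes are on that scale and understate those of low genes. A gene was called where its FDR (Benjamini-Hochberg, two-sided) was below 0.05 and its log2FC exceeded 0.58 in size. The code was tested on simulated data. Intervals and FDR cover the spread between mice, 1 library each. Members, lists and tests were chosen with earlier results of these data known, and the pairwise correlations within groups were added after the group values were seen. Genes eligible to be named were the 10 members, Thbs1, up to 3 called genes per list and comparison in order of FDR, and the 3 genes most like each member. Not all eligible list genes are printed, and 1 is not reported here. Listed names not found in the table were Angptl8 (held as Gm6484), Ciart, Tf and Adgre1. Tables were made in Python 3.11.15 using pandas 2.3.3 with numpy 2.4.6, figures by matplotlib 3.10.9.

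Alternatives were pseudocounts of 0.01 and 1, other filters, median of ratios scaling, quantile normalization, only the groups compared, other eBayes settings, a replicate block, voom on the recovered fragments, no fold threshold and each library left out. Counts of lists under other scalings were added after the data were seen.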

Additional observations from a re-analysis of the deposited data

Results flagged for a closer look

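Thbs1 in HFKO replicate 5 (4.4 FPKM) lay far above the other 4 libraries of its group, with a gap of 0.771 of the group's range. Of 44 combinations of gene and group checked it was the only one, and chance gives about 1 in 20. The diet difference of Thbs1 was smaller in TSP-1 null than in WT by the interaction test (log2 difference -2.67, FDR = 0.0023). The same test passed for Fabp1, the liver fatty acid binding protein (1.17, FDR = 0.0257), and for the macrophage gene Trem2 (-1.28, FDR = 0.0258). Fabp1 was at 6597 ± 564 FPKM in NDWT and 3513 ± 1046 FPKM in NDKO, against 2398 ± 462 FPKM (HFWT) and 2747 ± 264 FPKM (HFKO) on CDAHFD (SD, n = 5).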

How the results depend on the processing

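Of 1140 recomputed fold changes of members, 1074 kept their direction and their side of the threshold, 20 gained a call, 13 lost one and 33 changed sign. The count of members called for the diet in TSP-1 null went from 4 to 8 with median of ratios scaling. The other counts stayed within 1.5 times, and with 1 library left out they were 3 to 4 in the WT diet comparison, 3 to 5 in TSP-1 null, 2 to 3 between genotypes on control diet, and 0 on CDAHFD and for the interaction. Changes of sign all fell on differences without a call, except for Ppargc1a. With median of ratios scaling the diet differences in WT became -0.11 for Igfbp1, -0.20 for Fgf21 and -0.54 for Pdk4, and in TSP-1 null -0.0907 for Fgf21 and -0.13 for Pdk4. With quantile normalization they became -0.43 for Pdk4 and -0.14 for Ppargc1a in WT, and -0.16 for Pdk4 in TSP-1 null. Pdk4 in WT also turned with a pseudocount of 1 (-0.0201) and with voom (-0.0008). With 1 library left out, differences crossed 0 for Pdk4 in the WT diet comparison (-0.37 to 0.34), Foxo1 on control diet (-0.0385 to 0.122), Irs2 on CDAHFD (-0.0662 to 0.297), and the interactions of Angptl4 (-0.0488 to 0.134) and Fgf21 (-0.31 to 0.33). The cause was not tested. Tat between genotypes on control diet gained a call with voom (FDR = 0.0454) and median of ratios scaling (FDR = 0.0454).

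The labels give the groups the same replicate numbers, but same-numbered libraries did not deviate together (r from -0.13 to 0.08 over 20 pairs), so the numbers were not read as pairs. A replicate block called 4, 4, 3, 0 and 0 members in the 4 comparisons and the interaction, beside 4, 4, 2, 0 and 0 without it, with Tat gained on control diet (FDR = 0.0462). It called 7097, 6668, 677, 61 and 86 genes in all. Voom called 7196, 6832, 679, 132 and 131 genes, beside 7083, 6669, 693, 72 and 94 in the fit on FPKM. Genes called between genotypes on control diet numbered 393 with a pseudocount of 1 and 1899 without the fold threshold. On CDAHFD they were 127 without a filter, 40 with only the groups compared and 163 without the fold threshold, and the interaction called 54 without a filter. Without the fold threshold the diet comparisons called 10623 and 10406 genes, and 5 and 6 members.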

Other observations

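Immediate early genes, which respond within minutes to growth factors, stress and handling, were all called higher on CDAHFD (8 of 8 in each genotype), Fos by 2.97 on the log2 scale among WT and by 3.49 among TSP-1 null mice. Under median of ratios scaling, 6 and 8 were called higher. Between genotypes, Jun was lower in NDKO than in NDWT (-1.39, FDR = 0.0207) and Egr1 was higher in HFKO than in HFWT (1.61, FDR = 0.0321). Of 10 clock genes, 2 were called higher on CDAHFD in WT and 3 in TSP-1 null, below the 44.1% and 41.9% of all tested genes. In TSP-1 null these were Per2 (1.24), Per3 (1.64) and Dbp (1.42). Scaled by median of ratios, 1 clock gene was higher and 3 lower in WT, and 3 were higher and 3 lower in TSP-1 null. On control diet 1 clock gene was lower in NDKO, Per2 (-0.77, FDR = 0.0345), a call that ended with either other scaling, while Per1, counted with the glucocorticoid signal, was higher (1.13).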
